A study of Mus musculus with 40 samples.

Results

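Total colonic tissue, the whole wall with epithelium, muscle and stroma together, was compared between mice given the protozoan Tritrichomonas musculis (T.mu) and uninoculated controls 3 days after inoculation. The comparison holds 6 of the 40 libraries of the series, chosen by their labels for tissue, day and inoculum: 3 from mice that had received 2000000 sorted T.mu and 3 from mice with none. Every gene of the mouse was considered, and 11696 genes passed the filter on low counts and were tested. Each group had 1 mouse from each of the litters numbered 1, 2 and 3, and the libraries are called replicates 1 to 3 by litter. The labels used here name no strain, sex or age and no sham inoculum, and p-values measure the spread between mice of 1 group, estimated over all 20 total colon libraries of the 3 days. The question was which genes of the colon differ soon after the protozoan arrives, and whether such differences are also seen at days 14 and 48 and in purified epithelium.

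T.mu is a flagellate that lives in the lumen of the mouse caecum and colon. Interferons are secreted proteins: type I interferons (alpha and beta) and type III interferons (lambda) signal through Janus kinases to transcription factors that bind a short promoter element and switch on a large set of antiviral genes. Interferon-gamma has a receptor of its own and is best known for inducing immunity-related GTPases, guanylate-binding proteins and antigen presentation, and many genes answer to both kinds.

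The 6 libraries held 1366008 to 4363945 counts, and the lowest of these was T.mu replicate 3. A single entry of the count table is not a mouse gene, and its level was 29.5, 20.6 and 19.7 CPM (counts scaled to the depth of the library) in the controls and 6533, 29190 and 42760 CPM with T.mu. The groups did not overlap, and an exact two-sided permutation test gave p = 0.1, the smallest that 3 against 3 libraries allow. The tissue label held: the epithelial markers Epcam, Krt8, Krt18, Krt19, Vil1 and Cdh1 summed to 7432 to 9172 CPM in every library, beside muscle and fibroblast markers. Of the pancreas markers, Cpa1, Pnlip and Prss2 were at or near 0 and Cela1 was at 45.1 to 51.5 CPM. Of the small intestine markers, Defa17, Defa24 and Lct were at or near 0, Sis was at 20.6 to 58.9 CPM, and Apoa4 was at 7.60 CPM in T.mu replicate 1 and at or near 0 in the other 5 libraries. Control replicate 3 stood apart in its make-up, with smooth muscle markers summing to 1871 CPM against 3364 to 3826 in the other 5 libraries, and fibroblast markers to 419.5 CPM against 693.8 to 1178. Results below are given without this library where its absence ends a call.

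**Figure D1:**
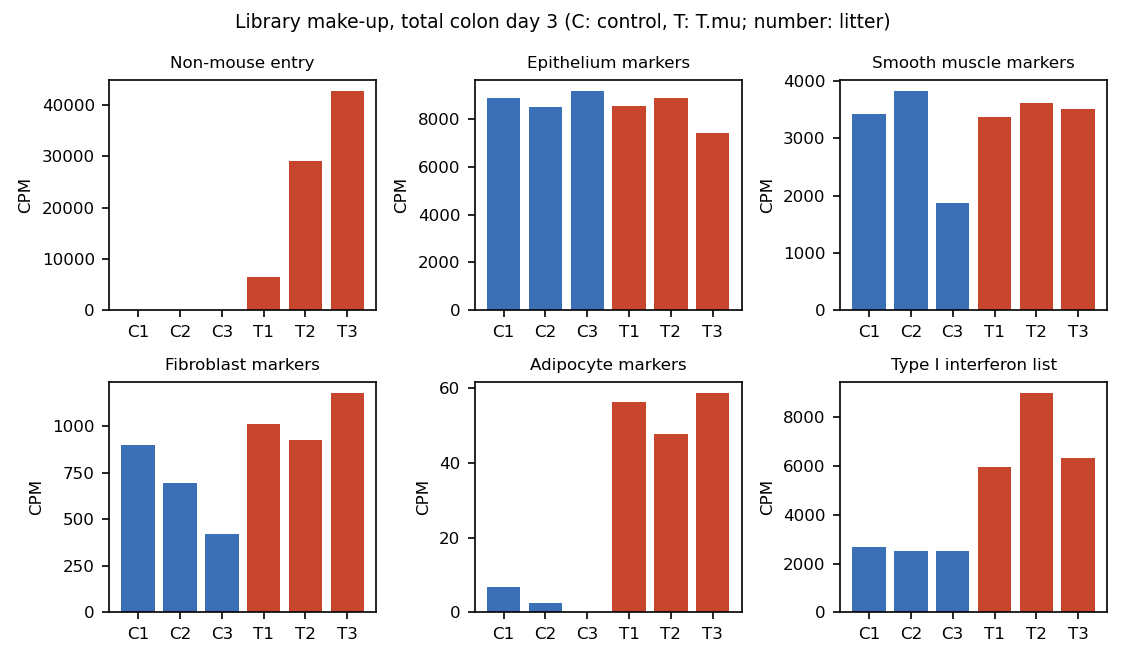
Summed levels in the 6 libraries of total colon at day 3 (CPM on linear axes from 0; C is control, T is T.mu and the number is the litter) of the non-mouse entry, 4 sets of cell type markers and the type I interferon list. The non-mouse entry and the interferon list were higher in each T.mu library than in any control, control replicate 3 was lowest in muscle and fibroblast markers, and adipocyte markers were at 0 to 6.85 CPM in controls and 47.8 to 58.7 CPM with T.mu.

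At day 3, 55 of the 11696 genes tested passed an adjusted p of 0.05 (0.47%) in edgeR's quasi-likelihood test. Higher with T.mu were 54 (0.462%) and lower was 1 (0.00855%). At an unadjusted p under 0.05 there were 405 higher (3.46%) and 201 lower genes (1.72%). The median log2 fold change (T.mu minus control) over all genes tested was -0.01. Among the 54 higher genes it was 1.75, from 0.78 for B2m to 8.32 for an identifier with no symbol, which in fold terms is 1.72 to 320. In bulk tissue a change in the number of cells of a type and a change in RNA per cell cannot be told apart.

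**Figure D2:**
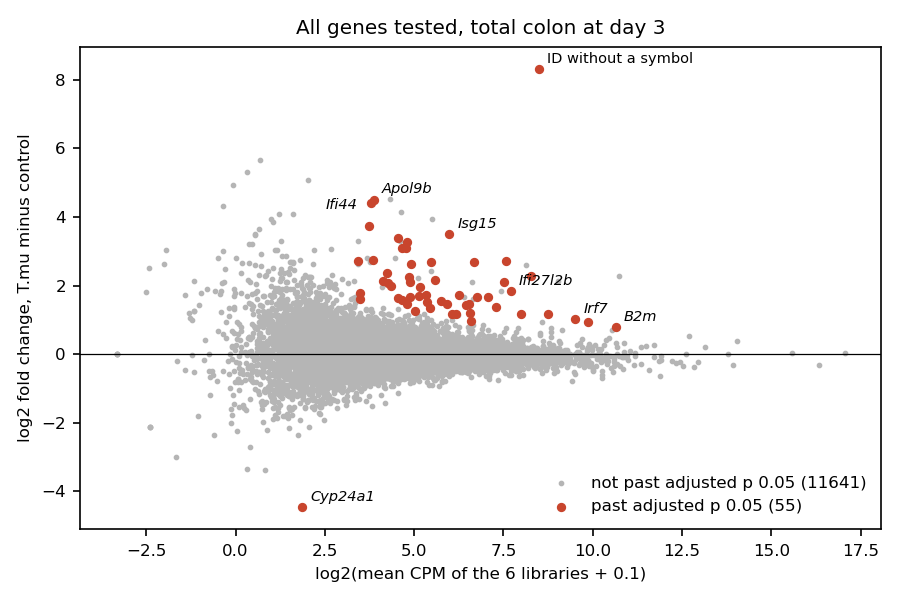
Each point is 1 of the 11696 genes tested: the horizontal axis is log2 of its mean CPM over the 6 libraries (0.1 added), the vertical axis its log2 fold change, T.mu minus control. The 55 genes past an adjusted p of 0.05 are red, and all but Cyp24a1 lie above 0.

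The ranges of the groups did not overlap for any of the 55 genes, so each also moved the same way in all 3 litter pairs. The genes were called from these same libraries, so this separation is no support beyond the calls. Over all genes tested, 6.84% had every T.mu library above every control and 7.61% had every one below. The T.mu libraries were not alike in height. Replicate 2 was the highest of the 3 T.mu libraries for 44 of the 54 higher genes and replicate 3 for 10, while replicate 1 was never the highest. The non-mouse entry was highest in T.mu replicate 3. Ribosomal RNA genes and Lars2 took 10.8% of the counts of T.mu replicate 2, against 20.8% to 28.1% in the other 5 libraries. The mitochondrially encoded share was 12.5% to 12.9% in controls and 9.34% to 11.1% with T.mu, lowest in replicate 2, and its part in the interferon differences was not tested. With ribosomal RNA genes and Lars2 left out, 55 genes were called, and without T.mu replicate 2 there were 48, 46 of them higher. When each library was left out in turn, 41 to 55 genes were called, and 33 of the 55 kept their call every time. Without control replicate 3, 48 genes were called, all higher. Leaving out the libraries under 400000 counts, none of which is from day 3, ended the calls of Irgm1, Ifit2, Ifit3, Ifit1bl1, Rtp4, Gm12250, Oasl2, Isg15, Xaf1, Tap1 and Ogfr (adjusted p 0.0584 to 0.316). Fitting only the 6 day 3 libraries ended those of Ifit3 (0.169) and Ifit1bl1 (0.258), and using no filter those of Ube2l6, Dtx3l, Tnfsf10 and H2-Q6 (0.0521 to 0.139). Under limma voom Gm12250, Ogfr and H2-Q6 were not called.

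Interferon-induced genes made up most of what rose. The type I interferon list has 52 members, of which 49 were tested: 31 rose, none fell, 47 were higher at an unadjusted p under 0.05, and all 49 had a log2 fold change above 0, with a median of 1.71. For comparison, 48.8% of all genes tested lay above 0. The summed level of the list was 2698, 2533 and 2534 CPM in the controls and 5956, 8980 and 6322 CPM with T.mu. Of the 37 genes of the interferon-gamma list, 24 were tested and 6 rose, with a median log2 fold change of 0.89. Both lists together hold 37 of the 55 called genes, and these lists were chosen with earlier results of these data known. Immune cell markers (Ptprc, Cd3e, Cd79a, Csf1r and Lyz2) summed to 69.9 to 117.2 CPM in controls and 148.9 to 185.5 CPM with T.mu, carried by Lyz2, a lysozyme of macrophages and neutrophils. The leukocyte marker Ptprc was at 9.14, 12.6 and 11.7 CPM in controls and 16.5, 9.36 and 14.3 CPM with T.mu, overlapping ranges, and the T cell marker Cd3e and B cell marker Cd79a were at or near 0 in all 6. The part of immune cell number in the interferon differences was not tested.

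Interferon genes themselves were barely counted. The table has 21 of them, of the alpha, beta, epsilon, kappa, zeta, lambda and gamma kinds, and none reached the filter. They had 0 counts in the 3 control libraries together and 5 with T.mu, all in replicate 2: 1 for Ifna11, 2 for Ifna16 and 2 for Ifnl2, a lambda interferon. Ifng and Ifnb1 had 0 counts in every library. The receptors and Janus kinases were measured and showed no call. Of 9 such genes, a list added after the calls were seen, all were tested, none passed the adjusted threshold or an unadjusted p under 0.05, and their median log2 fold change was 0.05. Ifnar1, a chain of the type I receptor, averaged 49.5 ± 8.39 CPM (SD, n = 3) in controls and 56.5 ± 7.93 CPM with T.mu. Jak1, the kinase shared by these receptors, averaged 116.7 ± 19.6 and 98.6 ± 0.274 CPM.

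Among the transcription factors downstream of the receptors, 3 described here were called higher. Irf7, a factor that amplifies type I interferon production, was at 519.5, 516.9 and 397.8 CPM in the controls and 846.4, 1123 and 934 CPM with T.mu. Every T.mu library was above every control, and the log2 fold change was 1.02 (SE 0.17, adjusted p = 0.000168). Irf9, a DNA-binding factor of the type I pathway, went from 29.0, 34.9 and 32.0 CPM to 91.2, 107.9 and 64.2 CPM, a log2 fold change of 1.47 (adjusted p = 0.000193). Stat2, which acts together with Irf9, went from 26.4, 18.3 and 28.6 CPM to 65.3, 68.6 and 50.7 CPM (log2 fold change 1.34, adjusted p = 0.00382). Both were separated between groups, but Stat2 lost its call without control replicate 2 or without T.mu replicate 2 (adjusted p up to 0.115).

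**Figure D3:**
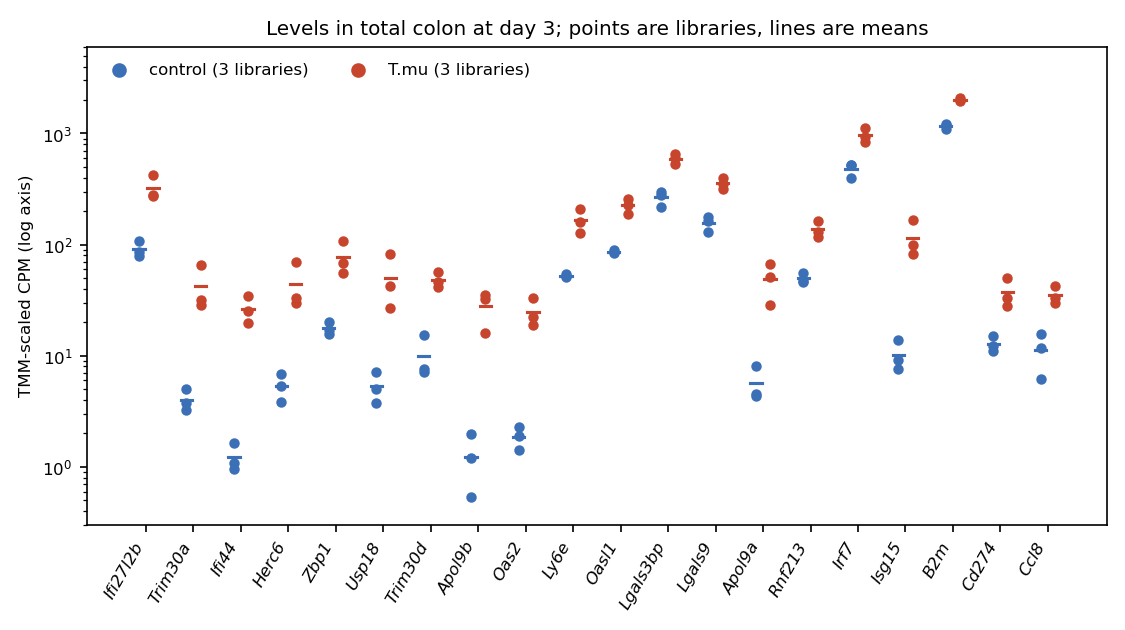
Levels of 20 genes in total colon at day 3 (TMM-scaled CPM, log axis). Points are libraries, blue for the 3 controls and red for the 3 with T.mu, and lines are group means. All 20 genes were called from these same libraries. For each, the lowest T.mu library is above the highest control, as for Irf7 at 846.4 against 519.5 CPM.

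Genes of the ISG15 system, in which the ubiquitin-like protein ISG15 is joined to other proteins and removed again, rose together. Isg15 itself was at 9.14, 7.53 and 13.8 CPM in the controls and 81.8, 166.4 and 99.1 CPM with T.mu. This was a log2 fold change of 3.50 (SE 0.59, adjusted p = 0.00783), but the call did not hold with litter as a block (adjusted p = 0.0531, or 0.297 with litter within day), nor without control replicate 1 or 2 (adjusted p up to 0.0904). Usp18, which removes ISG15 and dampens the type I receptor, was at 7.18, 3.76 and 5.01 CPM and then 26.8, 81.6 and 42.8 CPM. Herc6, the ligase that attaches ISG15 in mice, was at 6.85, 5.38 and 3.82 CPM and then 30.0, 70.4 and 33.3 CPM. Both kept their calls under each alternative tried, with log2 fold changes of 3.27 (SE 0.43, adjusted p = 4.67e-06) for Usp18 and 3.09 (SE 0.40, adjusted p = 8.04e-07) for Herc6. Ube2l6, the conjugating enzyme of the same chain, averaged 19.5 ± 3.63 CPM in controls and 45.8 ± 9.69 CPM with T.mu (adjusted p = 0.00758), and lost its call when control replicate 2, control replicate 3 or T.mu replicate 2 was left out (adjusted p up to 0.259).

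Sensors of nucleic acid and the enzymes that act on viral RNA were the next group. Zbp1, a sensor of nucleic acids that can trigger cell death, was at 17.0, 15.6 and 20.3 CPM in the controls and 55.9, 108.4 and 69.0 CPM with T.mu. Its log2 fold change was 2.15 (SE 0.30, adjusted p = 4.33e-06). The oligoadenylate synthases make the signal that activates RNase L. Among the called genes were 5 of this family and its relatives: Oas2, Oas1a, Oas3, Oasl1 and Oasl2. They were picked from the calls, and the number of family members tested is not given here. Over all genes tested, 0.462% were called higher. Oas2 was nearly silent in controls, at 2.28, 1.88 and 1.43 CPM, and was at 18.8, 33.3 and 22.2 CPM with T.mu, a 13.3-fold difference (log2 3.73, SE 0.55, adjusted p = 8.7e-06). Oasl1 started from 83.5, 90.3 and 85.4 CPM and reached 187.8, 259.4 and 228.3 CPM, 2.61-fold (adjusted p = 2.07e-05). Oasl2 was 6.54-fold higher (adjusted p = 0.00772), a call that was lost with litter within day as a block (adjusted p = 0.25) and without control replicate 1 or 2 (adjusted p up to 0.0858). Near-identical family members may share reads in these counts, so their separate values are uncertain, and the same holds for the Ifit, Trim30, Apol9, Ifi27 and Irgm genes below. Dhx58, a helicase of the RIG-I-like family, was at 6.53, 4.30 and 7.63 CPM in controls and 18.8, 42.4 and 34.1 CPM with T.mu (adjusted p = 0.000103).

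The Ifit genes bind foreign RNA and block its translation. Ifit2 was 6.46-fold higher (adjusted p = 0.000541) and Ifit3 6.18-fold (adjusted p = 0.00209). Ifit1bl1 was at 113.6, 93.0 and 112.6 CPM in the controls and 356.3, 868.7 and 315.6 CPM with T.mu, where replicate 2 was far above the others. It lost its call with litter as a block (adjusted p = 0.0566) and without any 1 of the 3 control libraries (adjusted p up to 0.135). Ifit1, another member, averaged 79.4 ± 18.5 CPM and 477.3 ± 326.0 CPM and was not called (adjusted p = 0.0992). Neither was Rsad2, the antiviral enzyme viperin, at 13.8 ± 0.979 and 74.2 ± 36.6 CPM (adjusted p = 0.0944). In all, 16 of the 18 members of the type I list that were tested and not called were higher at an unadjusted p under 0.05, and the other 2 were Slfn2 and Slfn9.

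Among the genes with the smallest p were several interferon-induced genes of less defined function. Ifi27l2b, a small membrane protein, was at 79.6, 84.9 and 108.5 CPM in the controls and 276.3, 419.8 and 279.9 CPM with T.mu (log2 fold change 1.84, SE 0.22, adjusted p = 3.8e-07). Ifi44 was at 1.63, 1.075 and 0.954 CPM in the controls and 19.7, 34.3 and 25.4 CPM with T.mu, a 21.4-fold difference on 13 and 208 counts (adjusted p = 3.8e-07). The tripartite motif gene Trim30a was at 3.26, 3.76 and 5.01 CPM and then 28.6, 66.0 and 31.7 CPM (adjusted p = 3.8e-07), and its neighbour Trim30d was 4.78-fold higher (adjusted p = 8.04e-06). In each of these genes the lowest T.mu library was well above the highest control. Apol9b and Apol9a, apolipoprotein L genes, were 22.7-fold and 8.51-fold higher (adjusted p = 8.7e-06 and 3.51e-05), on 13 and 228 counts for the first and 64 and 387 for the second. Rnf213, a very large ubiquitin ligase, went from 46.3, 55.9 and 47.2 CPM to 129.7, 163.2 and 118.1 CPM (adjusted p = 3.51e-05). The secreted galectin-binding protein Lgals3bp (219.9 to 300.5 CPM in controls, 528.9 to 658.1 CPM with T.mu) and the galectin Lgals9 (130.5 to 177 CPM, then 315.7 to 399.2 CPM) were 2.24-fold and 2.27-fold higher. Ly6e, a surface protein anchored by lipid, was 3.14-fold higher, with its highest value in T.mu replicate 3 (208.5 CPM). These genes, Ifi44 to Ly6e, kept their calls in each alternative that was run.

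Of the genes that interferon-gamma also induces, the immunity-related GTPases, which attack the membranes of vacuoles that hold microbes, were the largest group. Igtp was at 6.85, 5.11 and 10.02 CPM in the controls and 18.3, 37.2 and 38.1 CPM with T.mu (log2 fold change 2.06, SE 0.36, adjusted p = 0.000249). Irgm1, a regulator of the other GTPases, was at 30.0, 25.3 and 51.0 CPM and then 81.4, 165.3 and 103.1 CPM (adjusted p = 0.000541). Groups were separate for both, although control replicate 3 was the highest control in each. Irgm2 was 2.86-fold higher and Ifi47 2.92-fold (adjusted p = 0.00199 and 0.000111). The guanylate-binding protein Gbp3 was at 8.16, 4.30 and 7.16 CPM and then 28.6, 32.2 and 24.6 CPM (adjusted p = 0.00152). Without control replicate 2 Gbp3 was not called (adjusted p = 0.0665), and without T.mu replicate 2 Irgm2 was not (adjusted p = 0.129). The transcription factor Irf1, an early target of interferon-gamma, was at 161.8 to 223.5 CPM in controls and 180 to 206.9 CPM with T.mu (adjusted p = 0.999), and the chemokines Cxcl9 and Cxcl10 had 4 and 4 counts in controls and 5 and 10 with T.mu, too few to test.

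In antigen presentation by MHC class I, 3 of 22 genes rose: B2m, Tap1 and H2-Q6. B2m, the light chain of every class I molecule, was at 1227, 1200 and 1095 CPM in the controls and 1971, 2088 and 1993 CPM with T.mu. The spread within groups was small, and the log2 fold change of 0.78 (SE 0.15) had an adjusted p of 0.00162 and kept its call in every alternative run. Tap1, a chain of the peptide transporter, was at 14.7, 7.53 and 27.2 CPM and then 45.6, 59.8 and 56.3 CPM (log2 fold change 1.70, SE 0.37, adjusted p = 0.0176), and lost its call when control replicate 1, control replicate 2, T.mu replicate 2 or T.mu replicate 3 was left out (adjusted p up to 0.175). H2-Q6 was 3.08-fold higher (adjusted p = 0.0451) but was not called when any 1 of the 6 libraries was left out (adjusted p up to 0.246) or with litter as a block (adjusted p = 0.0894). The list's count fell to 1 when control replicate 1, control replicate 2, T.mu replicate 2 or T.mu replicate 3 was left out, and to 2 when control replicate 3 or T.mu replicate 1 was. The classical heavy chains H2-K1 (1514 ± 44.7 CPM in controls, 1740 ± 82.0 CPM with T.mu) and H2-D1 (1105 to 1180 and 1395 to 1670 CPM) were not called. The list's median log2 fold change was 0.41, and 10 members were higher at an unadjusted p under 0.05. MHC class II showed no call: 9 of its 14 genes were tested, none passed an unadjusted p under 0.05, and Cd74, the invariant chain, was at 50.2, 47.6 and 42.0 CPM in controls and 55.0, 61.6 and 103.9 CPM with T.mu (adjusted p = 0.999). Its ranges did not overlap, and T.mu replicate 3 was the highest.

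Surface and secreted proteins that act between cells were few. Ccl8, a chemokine for monocytes, eosinophils and T cells, was at 11.8, 15.6 and 6.20 CPM in the controls and 33.1, 29.6 and 42.8 CPM with T.mu (log2 fold change 1.64, SE 0.35, adjusted p = 0.00536). It was the only called gene of the type 2 immune response list, 9 of whose 24 members were tested, and it lost its call without control replicate 3 or T.mu replicate 3 (adjusted p up to 0.174). Cd274, which encodes the T cell inhibitory ligand PD-L1, was at 15.01, 12.4 and 10.97 CPM and then 28.2, 50.4 and 33.3 CPM (adjusted p = 0.00102), and was not called without T.mu replicate 2 (adjusted p = 0.11). Tnfsf10, the death ligand TRAIL, was at 4.90, 3.23 and 7.16 CPM and then 21.01, 22.4 and 7.93 CPM. T.mu replicate 3 was thus barely above the highest control, and the adjusted p of 0.0445 was lost with litter as a block (0.0747) and when control replicate 1, control replicate 2, T.mu replicate 1 or T.mu replicate 2 was left out (up to 0.397). Bst2, which tethers budding viruses to the cell, went from 8.81, 6.99 and 8.59 CPM to 29.5, 31.2 and 37.3 CPM (adjusted p = 0.00112).

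The other called genes complete the 55, and those of them outside the naming rule, like the ones above, were named after their values were seen. Slfn4, Cmpk2, Rtp4, Xaf1, Parp9, Dtx3l, Parp14 and Ifi27l2a belong to the type I list, with folds from 1.95 (Dtx3l) to 6.48 (Rtp4). Of these Parp14 lost its call with litter as a block (adjusted p = 0.0574). Leaving out 1 library ended the calls of Parp9 (control or T.mu replicate 2, adjusted p up to 0.133), Xaf1 (any control or T.mu replicate 2, up to 0.137), Dtx3l (control replicate 1 or 2, T.mu replicate 2 or 3, up to 0.179) and Parp14 (any but T.mu replicate 1, up to 0.306). Outside the lists were Ifi27, Trim12a, Ogfr, Gm5431, Gm12250, Gm15564 and the identifier without a symbol. Among them calls ended for Trim12a without T.mu replicate 2 (adjusted p = 0.0837), for Gm15564 without T.mu replicate 3 (0.0533), for Ifi27 without control replicate 3 or T.mu replicate 2 (up to 0.185), for Gm12250 without control or T.mu replicate 2 (up to 0.507) and for Ogfr when control replicate 1, control replicate 2, T.mu replicate 2 or T.mu replicate 3 was left out (up to 0.703). In the annotation used for symbols, 52 of the 54 called genes it holds are protein coding. Exons of 17 called genes overlap another gene, among them Parp9 with Dtx3l, Igtp with Irgm2, Tap1 with Psmb9 and Irf7 with Phrf1. Since the strand of counting is not given in the sources used here, reads of such pairs may not be told apart.

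The largest difference belonged to the identifier ENSMUSG00000089855.1, which has no symbol in that annotation. It was at 1.96, 1.61 and 2.86 CPM in the controls and 220.9, 668.8 and 1257 CPM with T.mu (log2 fold change 8.32, SE 1.24, adjusted p = 0.00271). Its T.mu libraries stood in the same order as the non-mouse entry, lowest in replicate 1 and highest in replicate 3. The call was lost when only the 6 day 3 libraries were fitted and with litter within day as a block (adjusted p = 0.0905). Whether reads of another organism were counted on it was not tested.

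The only gene that fell was Cyp24a1, the mitochondrial enzyme that degrades active vitamin D. It was at 5.22, 6.45 and 8.82 CPM in the controls and at 0, 0.52 and 0 CPM with T.mu. That is 77 counts against 2, a ratio of 25.8 with an exact 95% interval of 6.91 to 217.0 that covers counting error only. The interval treats each count as independent. Most low counts in these libraries were even numbers, so it may be too narrow even for counting error. The log2 fold change was -4.47 (SE 1.02, adjusted p = 0.0134). It lost its call without control replicate 3, T.mu replicate 1 or T.mu replicate 3 (adjusted p up to 0.141). Its exons overlap those of Pfdn4 on the other strand.

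Promoter sequences, which did not enter the choice of genes, hold an interferon element in 20 of the 42 higher genes that have a promoter in the table used. These RefSeq promoters (GRCm38.p6, from 250 bases before to 50 after the start) numbered 51, and 12 of the 54 higher genes had none. The core of the interferon-stimulated response element, searched on both strands as GAAA, any 2 bases and GAAA again, was in 24 of the 51 (47.1%). Of all 32851 RefSeq promoters 1131 held it (3.44%), and of the 11600 promoters of genes tested 362 did (3.12%). The core of the gamma-activated sequence, TTCNNNGAA, which reads the same way on both strands, was in 6 of the 51 (11.8%), against 8.3% of all promoters and 6.84% of those of genes tested. The 2 motifs overlapped by 3 bases in the promoter of Bst2 and in no other promoter of the higher genes. Of 37 matches to the response element core, counted in each promoter, 31 began within 150 bases before the start. The median position was 55 bases before it. Promoters of the same gene can overlap, so a site can be counted more than once, as in Apol9a and Apol9b. A match is a description of letters, not evidence of binding.

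The windows that follow show the element in genes described above: the ISG15 and oligoadenylate genes with several matches, the tether Bst2, the GTPases, the Trim30 pair and B2m. Each is the gene's own strand, 5′ to 3′, ends at or before the base preceding the start, and has the matches in capitals, which begin and end with TTTC where the match lies on the other strand.
Isg15, chr4:156200840-156200931, minus strand: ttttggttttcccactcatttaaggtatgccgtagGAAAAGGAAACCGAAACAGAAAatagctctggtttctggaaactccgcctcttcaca
Oas1a, chr5:120907526-120907580, minus strand: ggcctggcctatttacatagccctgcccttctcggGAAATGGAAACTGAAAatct
Bst2, chr8:71537552-71537637, minus strand: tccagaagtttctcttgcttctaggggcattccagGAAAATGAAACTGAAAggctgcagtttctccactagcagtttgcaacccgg
Irgm1, chr11:48871421-48871485, minus strand: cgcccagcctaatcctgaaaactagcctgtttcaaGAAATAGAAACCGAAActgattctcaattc
Igtp, chr11:58199487-58199555, plus strand: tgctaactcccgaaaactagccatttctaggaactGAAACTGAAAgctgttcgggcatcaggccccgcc
Irgm2, chr11:58214878-58214957, plus strand: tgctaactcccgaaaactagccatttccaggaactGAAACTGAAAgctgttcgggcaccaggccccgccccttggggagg
Trim30a, chr7:104465194-104465264, minus strand: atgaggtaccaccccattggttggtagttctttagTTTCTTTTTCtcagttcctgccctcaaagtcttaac
Trim30d, chr7:104507850-104507925, minus strand: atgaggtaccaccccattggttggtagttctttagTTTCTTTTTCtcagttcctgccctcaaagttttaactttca
B2m, chr2:122147513-122147592, plus strand: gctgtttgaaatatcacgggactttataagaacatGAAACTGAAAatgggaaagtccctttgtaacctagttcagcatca

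Isg15 had 3 overlapping matches in 1 run, and Oas1a, Bst2 and Irgm1 had 2 each. Counting all promoters of a gene, 12 of the higher genes had more than 1 match. Among these are Ifit1bl1 and Trim30a, whose matches lie in separate promoters, and Apol9a and Apol9b. Paralogs shared their windows almost whole: 67 of 69 bases were identical between Igtp and Irgm2 and 70 of 71 between Trim30a and Trim30d. Between Apol9a and Apol9b, whose windows are not shown, 72 of 72 were identical. The promoters of such paralogs are therefore not independent examples. Some of the higher genes also lay near each other. No share over all genes tested was computed under the same rule, and overlapping or near-identical neighbours may share reads. Of the 52 higher genes placed in the RefSeq gene order, 20 fell into 8 groups with at most 5 places between neighbours. Among these were Gm12250, Igtp and Irgm2 and the pair Irgm1 and Gm5431 on chromosome 11, Parp14, Dtx3l and Parp9 on chromosome 16, Ifit2, Ifit3 and Ifit1bl1 on chromosome 19, and Ifi27l2a, Ifi27 and Ifi27l2b on chromosome 12.

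None of the lists for other pathways and cell types held a called gene, apart from those named above. The inflammasome, in which caspase-1 matures the cytokines IL-1 beta and IL-18, had 21 tested members with a median log2 fold change of -0.05. Casp1 was at 219.9, 175.8 and 249.7 CPM in the controls and 164.5, 275.8 and 180.8 CPM with T.mu, and its adaptor Pycard at 207.5, 257.2 and 277.6 CPM and 211.9, 244.1 and 273.5 CPM. Their ranges overlapped, as did those of Il18 (21.5 to 39.5 CPM in controls, 29.9 to 35.8 CPM with T.mu) and of the sensor Nlrp1b (2.69 to 12.6 CPM, then 3.64 to 9.52 CPM). Il1b had 9 counts in controls and 2 with T.mu, and the sensor Nlrp3 had 0 and 7, too few to test. The member with the smallest p was Il18bp, an inhibitor of IL-18, at 3.26, 5.64 and 4.29 CPM and then 11.6, 10.1 and 20.6 CPM (adjusted p = 0.743).

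**Figure D4:**
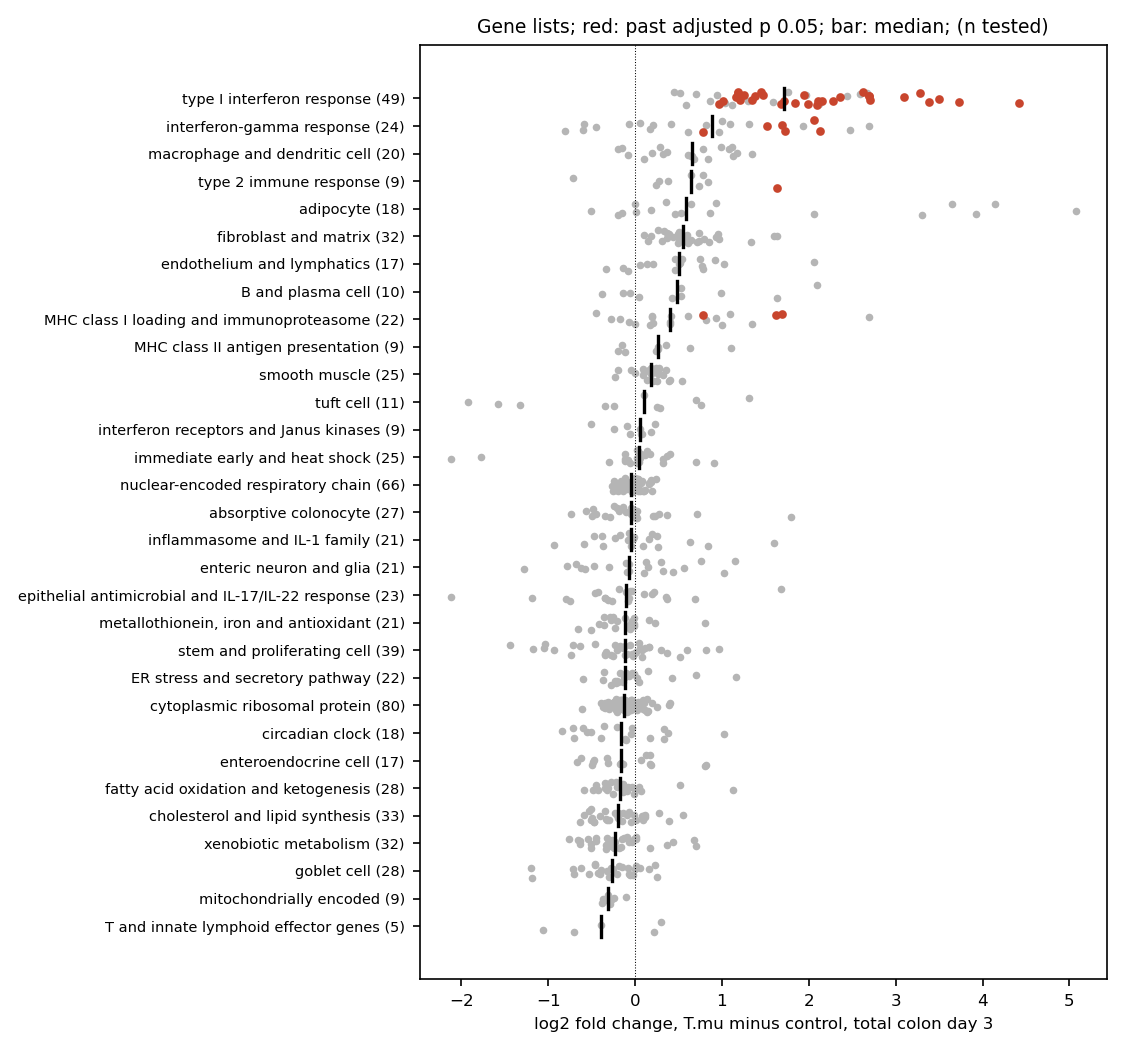
Log2 fold change, T.mu minus control at day 3, for the tested members of each list with at least 5 of them (number in brackets). Each point is a gene, red where the adjusted p is under 0.05, and the bar is the list's median, which is 1.71 for the type I interferon list and 0.89 for the interferon-gamma list.

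No gene of the epithelial lists was called. In the list of antimicrobial and IL-17/IL-22 response genes, with 23 tested and a median log2 fold change of -0.11, Lypd8, which keeps bacteria from the mucosa, averaged 14540 ± 478.0 CPM in controls and 18800 ± 828.0 CPM with T.mu (adjusted p = 0.522). The lectin Reg3g ran from 166.1 to 416.4 CPM in controls and from 76.2 to 372.9 CPM with T.mu, a spread wider than any difference. Goblet cell genes had a median of -0.26 over 28 tested, with 22 below 0 and 4 lower at an unadjusted p under 0.05. Muc2, the main mucin, was at 2562, 1953 and 4019 CPM in controls and 2379, 2255 and 2410 CPM with T.mu, overlapping ranges, and Retnlb, a goblet cell product of type 2 immunity, at 12.1, 32.0 and 19.3 CPM and 14.3, 18.2 and 14.3 CPM. The tuft cell marker Dclk1 was at 26.1, 21.5 and 23.8 CPM and then 19.2, 29.1 and 28.5 CPM. Xenobiotic metabolism genes had a median of -0.23 over 32 tested, with 7 lower at an unadjusted p under 0.05. Among them Fmo5, a monooxygenase, averaged 297.3 ± 38.1 CPM in controls and 192.6 ± 9.91 CPM with T.mu (adjusted p = 0.28, and 0.0181 with only the 6 day 3 libraries). Of the absorptive colonocyte genes, the brush border protease Mep1a was at 939.4, 732.5 and 931.6 CPM and then 624.2, 620.2 and 510.6 CPM. It did not pass (adjusted p = 0.174), but did under DESeq2 (0.0425), limma voom (0.0421) and with only the 6 day 3 libraries (0.0278). The epithelial adhesion gene Epcam overlapped between groups (3258 to 3649 CPM in controls, 2853 to 3711 CPM with T.mu), as did the amino acid transporter Slc6a14 (1513 to 1932 CPM, then 1510 to 1837 CPM).

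Genes of the tissue around the epithelium lay mostly above 0, without a call. All 32 fibroblast and matrix genes had a log2 fold change above 0, with a median of 0.55, and 13 were higher at an unadjusted p under 0.05. Dpt, a matrix protein of fibroblasts, was at 353.4, 296.8 and 143.8 CPM in the controls and 501.7, 455.6 and 560.6 CPM with T.mu, with control replicate 3 the lowest by far. Its adjusted p was 0.0834, and it passed with litter as a block (0.00251, or 0.000361 within day), without a filter (0.00892), with the CPM filter (0.0253), with DESeq2 (0.016), with limma voom (0.00802) and without control replicate 1 (0.00486). The complement gene C3 was at 54.8, 58.6 and 36.2 CPM and then 189.6, 66.0 and 201.4 CPM (adjusted p = 0.0866) and passed without T.mu replicate 2 (7.7e-06), without a filter (2.73e-07), with DESeq2 (0.000247) and with litter within day as a block (0.0332). Macrophage and dendritic cell genes had a median of 0.65 over 20 tested. C1qb, a complement chain made by macrophages, was at 31.0, 29.6 and 10.7 CPM and then 62.2, 35.4 and 65.0 CPM (adjusted p = 0.14), again lowest in control replicate 3, and it passed without T.mu replicate 2 (0.048) and with the CPM filter (0.0394). The smooth muscle gene Acta2 was at 1188, 1366 and 674.3 CPM in controls and 1070, 1401 and 1127 CPM with T.mu, overlapping ranges. Without control replicate 3, the library lowest in muscle and fibroblast markers, the log2 fold change of Dpt was 0.64 in place of 0.94 and that of C1qb 0.82 in place of 1.18. The part of that library in the list medians was not tested.

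Among fat cell genes, separated groups and high folds came without a call. Cfd, a secreted protease of fat cells, was at 6.20, 2.15 and 0 CPM in the controls and 52.8, 36.9 and 49.2 CPM with T.mu, and Car3, a carbonic anhydrase of fat and muscle, at 8.81, 2.96 and 1.91 CPM and 42.0, 35.9 and 53.9 CPM. The groups did not overlap, but the adjusted p was 0.196 for both. Adipoq, another of the adipocyte markers, was at 0.65, 0 and 0 CPM in controls and 3.58, 10.9 and 8.72 CPM with T.mu (adjusted p = 0.306). Plin1, the coat protein of fat droplets, was at or near 0 in all 6 libraries. With DESeq2 Cfd and Car3 passed (adjusted p = 0.00671 and 0.00836), and Car3 also passed with only the 6 day 3 libraries (1.89e-05). Over the 18 adipocyte genes tested the median log2 fold change was 0.59. Of them 14 lay above 0 and 4 below, and 6 were higher at an unadjusted p under 0.05.

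At later days the same tissue was compared in the same way, with other mice and other controls. The non-mouse entry was at 511.9 CPM in control replicate 1 of day 14 and 969.1 CPM in control replicate 2 of day 48. The other controls of those days were at 5.11 to 72.5 CPM. With T.mu it was at 4053 to 20190 CPM at day 14 and 1425 to 13110 CPM at day 48. The part of those 2 controls in the later differences was not tested. Of the 54 genes higher at day 3, 43 were called higher at day 14 (79.6%), where 0.821% of all genes tested were, and they made up 44.8% of the 96 higher genes of that day. At day 48, 38 were called higher (70.4%), against 1% of all genes tested, which is 32.5% of 117. All days share a single fit and the same estimate of spread for each gene. The later calls are therefore not independent of the choice of genes at day 3. All 54 had a log2 fold change above 0 at day 14 and 51 at day 48, while 54.5% and 41.4% of all genes tested did. The median log2 fold change of the 54 was 1.75 at day 3, 2.21 at day 14 and 1.52 at day 48, and 33 genes were called on all 3 days. Among these 33, Trim30a had log2 fold changes of 3.39, 5.54 and 1.87, Isg15 of 3.50, 3.92 and 2.48, Igtp of 2.06, 3.22 and 2.40 and B2m of 0.78, 0.97 and 0.91. Those called at day 3 alone were Trim12a, Gbp3, Ogfr, Tnfsf10, H2-Q6 and Gm15564, along with Cyp24a1, which had a log2 fold change of -4.28 at day 14 (adjusted p = 0.544) and 0.14 at day 48.

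**Figure D5:**
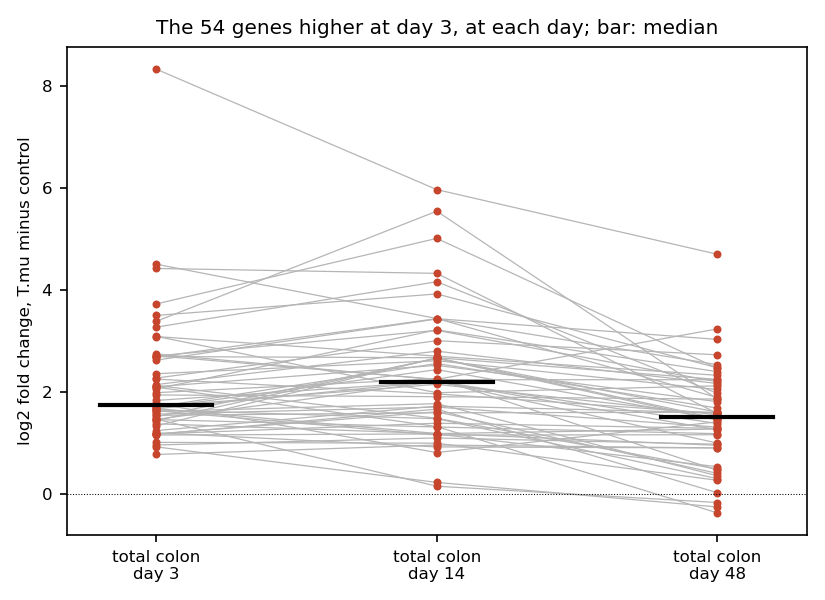
Log2 fold change, T.mu minus control in total colon, of the 54 genes higher at day 3, on days 3, 14 and 48; each grey line is a gene and each bar the median (1.75, 2.21 and 1.52). The genes were chosen at day 3, and 54 and 51 of them lie above 0 at the later days.

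Passing at one day and not at another is not a difference between days, so that difference was tested. No gene differed between day 14 and day 3 in edgeR after adjustment, with 736 at an unadjusted p under 0.05 (6.29%). Without T.mu replicate 2 of day 3 there were 6. At day 14, control replicates 1 and 2 held only 351625 and 220733 counts and T.mu replicate 3 held 475993. This depth limits the differences between days 14 and 3 that the test could detect. Between day 48 and day 3, 10 genes differed (0.0855%), 8 of them lower at day 48 (0.0684%), and 2 of the 10 were among the 54. Ifi27l2a had a log2 fold change of 2.10 at day 3, 1.33 at day 14 and -0.36 at day 48, and the last was lower than the first by a log2 difference of -2.46 (SE 0.40, adjusted p = 0.00694). Gm15564, annotated as an antisense transcript, had 0.93, 0.23 and -0.25 (difference -1.18, SE 0.23, adjusted p = 0.0112, and 0.123 without T.mu replicate 3). In the other direction Slc6a14 had -0.07 at day 3 and 1.31 at day 48 (difference 1.38, SE 0.26, adjusted p = 0.0112), a call lost without T.mu replicate 1 (0.0566) or 3 (0.0892). Leaving out T.mu replicate 1 gave 5 such genes, T.mu replicate 3 gave 2 and control replicate 3 gave 6. The rest of the 54 were not called in that test, which does not show that they stayed the same.

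Purified colonic epithelium was measured on the same day. Its libraries carry the same litter numbers and matching titles as those of total colon, so both tissues may come from the same mice. The main fit did not pair them, so epithelium is not shown to be an independent set of animals. In a fit over all 40 libraries, 18 of the 54 genes were called higher in epithelium at day 3 (0.431% of all genes tested were), 52 had a log2 fold change above 0 (56.7% of all genes tested did), and the median was 1.81, against 1.75 in total colon. The 18 were Ifi27l2b, Ifi44, Oas2, Ly6e, Lgals3bp, Lgals9, Rnf213, Slfn4, Oas1a, Ifi27l2a, Irf7, Irf9, Bst2, Rtp4, Oas3, Ube2l6, Oasl2 and Isg15. When the difference between tissues was tested, 4 genes passed (0.0338%), and 1 was in the set: Irf7, with a log2 fold change of 1.02 in total colon and 2.87 in epithelium (difference -1.85, SE 0.38, adjusted p = 0.0241). That call was lost without T.mu replicate 1 (0.0582) or 3 (0.0539) of total colon. In place of 4 genes, 1 was called when either of these libraries was left out, and 2 when T.mu replicate 2 or control replicate 3 was. Epithelial control libraries of day 3 were shallow, at 170297 to 670939 counts, which limits the differences between tissues that this test could detect.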

How the data were processed

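The authors deposited raw whole-number counts for each gene in each library, made by 3′ digital gene expression, which reads transcript ends, per the labels' protocols. Per the submitters' processing notes the tools included STAR and Subread, with no version or role. Not given in the sources used here are the genome build, the annotation, the strand and whether molecular identifiers were used. Of 45792 mouse gene IDs, 45143 (98.6%) have a symbol in GENCODE M21 (GRCm38), matched by ID. The non-mouse entry (0.389% of all counts) entered neither library sizes nor tests. Low counts are less precise than they look, since 67.5% to 74% of counts from 1 to 20 in the 6 libraries were even numbers.

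Counts were tested with edgeR 4.0.16 (R 4.3.3), by the quasi-likelihood test with filterByExpr (minimum count 10, total 15), TMM scaling and robust dispersions, over the 20 total colon libraries in 6 groups. Differences between tissues came from 1 fit over all 40 libraries. P-values were adjusted by Benjamini-Hochberg over all genes tested, at 0.05. Levels are TMM-scaled CPM of mouse counts, computed from the deposited counts. No test was run over a list. The members and lists were chosen with earlier results of these data known. Named were up to 15 genes per direction with the smallest p, with 1 direction in all 3 litter pairs, up to 4 called members per list, up to 2 tested members with the smallest p of a list without calls, and a short fixed set, of which 1 gene is not reported here. Alternatives were RLE scaling, other filters, DESeq2 1.42.0, limma 3.58.1 voom, only the 6 day 3 libraries, litter blocks, halved counts, shallow libraries or ribosomal RNA genes left out, and each library left out. The scripts were tested on simulated data.

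The labels give T.mu and control mice the same litter numbers, so numbers pair the libraries. Deviations from the group means correlated by 0.033, -0.103 and -0.044 across the same-numbered pairs. Replicates differed by more than counting error (chi-square per degree of freedom 4.33 to 43.9), and no library was a copy of another.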

Additional observations from a re-analysis of the deposited data

Results flagged for a closer look

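Levels of the non-mouse entry were 6533, 29190 and 42760 CPM in T.mu replicates 1 to 3, far above the 19.7 to 29.5 CPM of the controls, in counts that the comparison of mouse genes does not use.

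The difference between T.mu and control changed from day 3 to day 48 for 10 genes in the test of that change (edgeR, adjusted p from 0.00479 to 0.0444). Beside Ifi27l2a (-2.46), Gm15564 (-1.175) and Slc6a14 (1.385), the log2 differences were -1.505 for Chchd10, a mitochondrial protein, and 1.445 for Slc3a1, part of an amino acid transporter. Rbp4 (-8.885) and Mfap2 (-8.812) had 0 counts in the 4 T.mu libraries of day 48 and 212 and 92 in their controls, so these fitted values depend on the prior count. The day 48 libraries differed in depth, at 236155 to 1355659 mouse counts with T.mu and 2223447 to 6756616 in controls, so counts of the groups do not compare directly. Fat cell genes were Car3 (-6.99), with a log2 fold change of 3.30 at day 3 and -3.69 at day 48, and Fabp4 (-5.031). Hp, a plasma protein gene, had -7.857, on 0 and 14 counts at day 3 and 167 and 4 at day 48.

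Between total colon and epithelium at day 3, the difference itself passed for Irf7 (-1.85), for the glutathione transferase Gstm3 (-2.844), for Spns1 (-4.57) and for the sialidase Neu1 (-1.773). Epithelial controls held 48, 21, 2 and 44 counts of these genes. The causes of these differences were not tested.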

How the results depend on the processing

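None of the 55 calls reversed in any alternative; 33 held with each of the 6 libraries left out, 38 under the other alternatives and 28 under all. Calls numbered 87 (84 higher) with DESeq2, 103 (90 higher, 13 lower) with only the 6 day 3 libraries and 84 (82 higher) with halved counts. That second fit moved the share of higher calls from 98.2% to 87.4%. Without 1 library there were 41 to 55 calls (40 to 54 higher), 22 to 31 in the type I interferon list and 4 to 6 in the interferon-gamma list. With litter as a replicate block there were 51 calls (62 with litter within day), and 5 and 7 of the 55 were lost. The report names these. Between day 14 and day 3, 3 genes were called without a filter and 0 to 6 without 1 library. Between day 48 and day 3 these were 41 and 2 to 15, and between tissues 11 and 1 to 4. The cause was not tested. Among genes without a call, log2 fold changes near 0 changed sign: Pycard was at 0.02 with RLE scaling, 0.016 with DESeq2 and 0.006 with halved counts, and Reg3g at 0.298 with the litter block. Without 1 library the ranges crossed 0 for Casp1 (-0.32 to 0.089), Pycard (-0.136 to 0.063), Il18 (-0.03 to 0.413), Nlrp1b (-0.774 to 0.254), Reg3g (-1.02 to 0.323), Retnlb (-0.689 to 0.001), Slc6a14 (-0.156 to 0.017), Dclk1 (-0.02 to 0.275), Muc2 (-0.484 to 0.058), Epcam (-0.176 to 0.011) and Acta2 (-0.09 to 0.367). Depth limits genes below about 10 counts a library, interferons among them.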
